A study of Mus musculus with 18 samples.

Results

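Cystic ovaries of transgenic mice that hypersecrete luteinizing hormone (LH) were compared with wild-type ovaries of the same strain at the age of 2 months. The arrays were chosen by their titles, and they were 8 of the 18 arrays of the series. CF-1 mice and CF-1xC57BL/6 F1 hybrids, called hybrids here, each gave 1 transgenic and 1 wild-type condition. Each of these 4 conditions was hybridised to 1 array of chip type A and 1 of chip type B, both of which carry Affymetrix control probe sets. The transgene is named LHCTP in the labels, which describe both transgenic ovaries of this age as cystic. None of the 4 conditions carried a treatment. From published descriptions of the line, the transgene encodes an LH beta subunit lengthened by a C-terminal peptide and is driven in the pituitary by a gonadotropin alpha subunit promoter, so the ovary receives the hormone from the blood. The labels name no animals, no pooling and no founder line. The other 10 arrays came from ovaries of 5 months, and those of transgenic mice are described as a granulosa cell tumour in CF-1, a luteoma in the hybrid and a luteoma in an hCG-treated CF-1 mouse.

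LH acts through a receptor on theca and interstitial cells, where it drives androgen synthesis from cholesterol, and on granulosa cells of large follicles, where a surge of it starts ovulation and turns the cells into progesterone-making luteal cells. Granulosa cells respond to follicle-stimulating hormone, convert androgen to oestrogen and secrete inhibins and activins, which share beta subunits, and anti-Müllerian hormone. Ovaries under lasting LH excess are known for cysts, high steroid output and, in some strains, granulosa cell tumours.

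Values are intensities in arbitrary units, 1 per probe set and array, scaled to a common trimmed mean within a chip type. The floor, below which intensities were set equal before taking log2, was 183.8 units on chip A and 290.7 units on chip B, and the detection limit was 2 floors. A log2 difference is cystic minus wild type of the same strain. The trimmed mean before scaling was 932 to 1467 units on the 4 arrays of chip A and 542 to 844 units on those of chip B. Between 56.0% and 57.9% of probe sets reached the limit on chip A and between 28% and 29.3% on chip B. The 3′ probe set of 18S ribosomal RNA, an array control, was lower in both cystic ovaries on both chips, at 675 units in the CF-1 cystic and 254.5 units in the hybrid cystic ovary on chip A, against 1210.1 and 2463 units in their wild types. The 3′ over 5′ ratio of beta-actin ran from 2.1 to 2.4 in the cystic ovaries and from 2.5 to 2.97 in wild types. The part of these control differences in the results was not tested. Oocyte and follicle genes marked all 4 conditions as ovary. The zona pellucida gene Zp2 had 2085 (CF-1) and 2107.5 (hybrid) units in cystic ovaries, against 2349 and 2595 units in wild types. The oocyte growth factor Gdf9 had 3622 (CF-1) and 3312 (hybrid) units in cystic ovaries, against 3789.8 and 3494 units in wild types.

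Genes that stood apart in the same direction in both strains were few, and no single gene passed a test. Of the 5619 probe sets that reached the limit in both pairs, 52 were at least 2-fold higher in both cystic ovaries (0.925%) and 63 at least 2-fold lower in both (1.12%). The limma fit of genotype with strain as a term, which has 1 residual degree of freedom, called 0 of 5771 probe sets at an adjusted p of 0.05 (0% called), with 671 at an unadjusted p under 0.05 (11.6%) and a lowest adjusted p of 0.101. With trend and robust variances in limma, 84 were called, and with the floor doubled 11. Statements on single genes are therefore of measured values, without a call. The residual of this fit is the disagreement between the strains, so that its p-values measure the spread between single samples and not between animals. Limma also shares this spread over probe sets, with 3.44 prior degrees of freedom on chip A and 3.22 on chip B. Each SE and p-value therefore rests more on the shared spread than on the gene's own residual. An exact permutation test of 2 against 2 samples could not go below p = 0.333 and was not used. In bulk ovaries, fewer cells of a type and less RNA per cell cannot be told apart.

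Within the pairs, 208 of 5960 probe sets were called higher (3.49%) and 188 called lower (3.15%) by 2-fold or more in the CF-1 cystic ovary. In the hybrid pair 323 of 5986 were higher (5.4%) and 302 lower (5.05%) in the cystic ovary. Among probe sets at the limit in both pairs, the 52 shared higher ones were 32.9% of the 158 called in CF-1 (2.81% of 5619) and 23.3% of the 223 called in the hybrid (3.97%). The 63 shared lower ones were 40.1% of 157 in CF-1 (2.79%) and 27.5% of 229 in the hybrid (4.08%). Whatever the size, 31.2% of the 5619 probe sets were higher and 28.5% lower in both. A further 23 probe sets were at least 2-fold in opposite directions (0.409%). Across the 5619 probe sets the log2 differences of the pairs, which have no array in common, had Pearson's r of 0.35 and Spearman's rho of 0.27, with r of 0.27 on chip A and 0.50 on chip B. These correlations are across probe sets, which share libraries and are not independent.

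**Figure D1:**
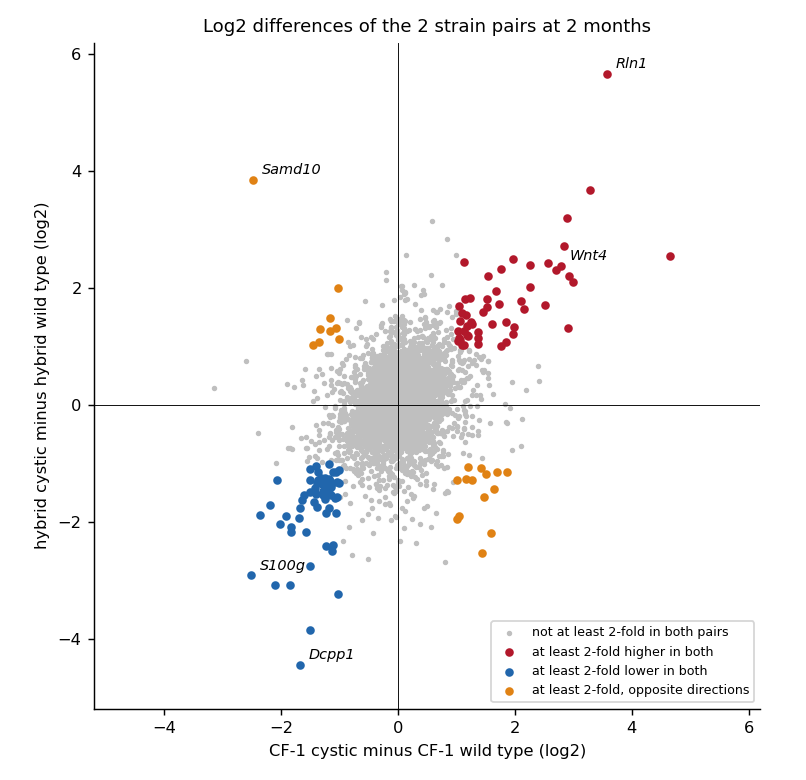
Log2 difference of cystic minus wild type in the CF-1 pair (x axis) and in the hybrid pair (y axis) for the 5619 probe sets at the detection limit in both pairs. The 52 red points are at least 2-fold higher in both cystic ovaries, the 63 blue points at least 2-fold lower in both, and the 23 orange points differ in opposite directions, with Rln1 at the far upper right and Samd10 apart at the upper left.

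The 52 higher probe sets held 35 named genes. Rln1, which encodes the peptide hormone relaxin of the rodent corpus luteum, had 3450.4 (CF-1) and 14761 (hybrid) units in cystic ovaries, against 38.6 and 117 units in wild types. Both wild types lay under the floor, so that the difference was at least 11.9-fold in CF-1 and at least 50.8-fold in the hybrid. Ptgds, a prostaglandin D synthase, had 1317 (CF-1) and 4392 (hybrid) units in cystic ovaries, against 61.3 and 669 units in wild types, and the CF-1 wild type was under the floor. Wnt4, a secreted Wnt ligand with a known part in ovarian development, had 2318 (CF-1) and 1976.5 (hybrid) units in cystic ovaries, against 408 and 601.5 units in wild types. Its second probe set read 2006.5 and 1516 units in the cystic ovaries, against 200.5 and 288 units in the CF-1 and hybrid wild types. Each of these 3 genes had both cystic ovaries above both wild types, which their choice by a wide difference in both pairs makes likely. The share of all probe sets so separated was not counted. The mean log2 difference of both pairs was 4.62 (limma, SE 0.54, adjusted p = 0.131) for Rln1. It was 2.78 (limma, SE 0.19, adjusted p = 0.101) for Ptgds. For the brighter Wnt4 probe set it was 2.11 (limma, SE 0.25, adjusted p = 0.131).

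Ecm1, a secreted glycoprotein of the extracellular matrix, was the brightest of the leading genes. It had 16376 (CF-1) and 18508 (hybrid) units in cystic ovaries, against 2784.5 and 3430.0 units in wild types. The differences were 5.88-fold and 5.4-fold, with a mean log2 difference of 2.49 (limma, SE 0.19, adjusted p = 0.101). Vcam1, an adhesion receptor for leukocytes, had 1714 (CF-1) and 1453 (hybrid) units in cystic ovaries, against 359 and 360.3 units in wild types. Its wild-type values at 2 months were nearly equal, and both cystic values lay above them. At 5 months the CF-1 wild type read 3685 units, above both cystic values, and the hybrid wild type 318 units. Serpina6, the corticosteroid-binding globulin, had 1135 (CF-1) and 1648 (hybrid) units in cystic ovaries, against 157 and 82.1 units in wild types, with both wild types under the floor. Lefty1, a secreted antagonist of Nodal signalling, had 1232 (CF-1) and 937 (hybrid) units in cystic ovaries, against 341.5 and 349.7 units in wild types. Nab2, a corepressor of EGR transcription factors, had 881.5 (CF-1) and 968 (hybrid) units in cystic ovaries, against 166 and 34.8 units in wild types. Its second probe set was also higher, by 0.60 and 1.36 on the log2 scale in the CF-1 and hybrid pairs. By the first probe set, the CF-1 wild type of 5 months read 1581 units, above both cystic values, and the hybrid one 331 units.

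Among the other leading higher genes, the smaller of the 2 log2 differences ran from 1.46 for Supt6, a transcription elongation factor, to 1.78 for Cldn11, a tight junction protein. Between them stood Alas2, the erythroid enzyme that starts haem synthesis, Sorbs3, an adaptor of focal adhesions, Reln, the secreted protein reelin, Eya2, a transcription cofactor, and Csk, a kinase that restrains Src. The CF-1 wild type of 5 months read 1015 units for Supt6 and 888 units for Csk, above the CF-1 cystic values of 667 and 664.5 units. For Sorbs3 and Cldn11 it read 570 and 641 units, against 638 and 790.5 units in the CF-1 cystic ovary. For Alas2, Reln and Eya2 it read 310, 219 and 63.1 units, below both cystic values. Reln had 757 (CF-1) and 815 (hybrid) units in cystic ovaries, against 238 and 209.7 units in wild types. Eya2 had 713 (CF-1) and 799 (hybrid) units in cystic ovaries, against 248 and 251 units in wild types, so that both genes were near the floor in wild types. For Csk the probe sets disagreed, since 2 others of it had differences between -0.09 and 0.14. Past these 15 genes, Sod3, the extracellular superoxide dismutase, had 2365 (CF-1) and 3852 (hybrid) units in cystic ovaries, against 777 and 1479.9 units in wild types, while its other probe set had log2 differences of 0.58 and 0.06. Hsd11b2, which inactivates corticosterone and was picked out after its values were seen, had 4123 (CF-1) and 5300.4 (hybrid) units in cystic ovaries, against 1888.5 and 968 units in wild types. Angpt2, a ligand of the endothelial receptor Tie2, was higher by its 2 probe sets, and the brighter one read 2303 (CF-1) and 2013 (hybrid) units in cystic ovaries, against 889 and 850.2 units in wild types. Of the 52 probe sets 15 have no single gene name here and are not described further.

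**Figure D2:**
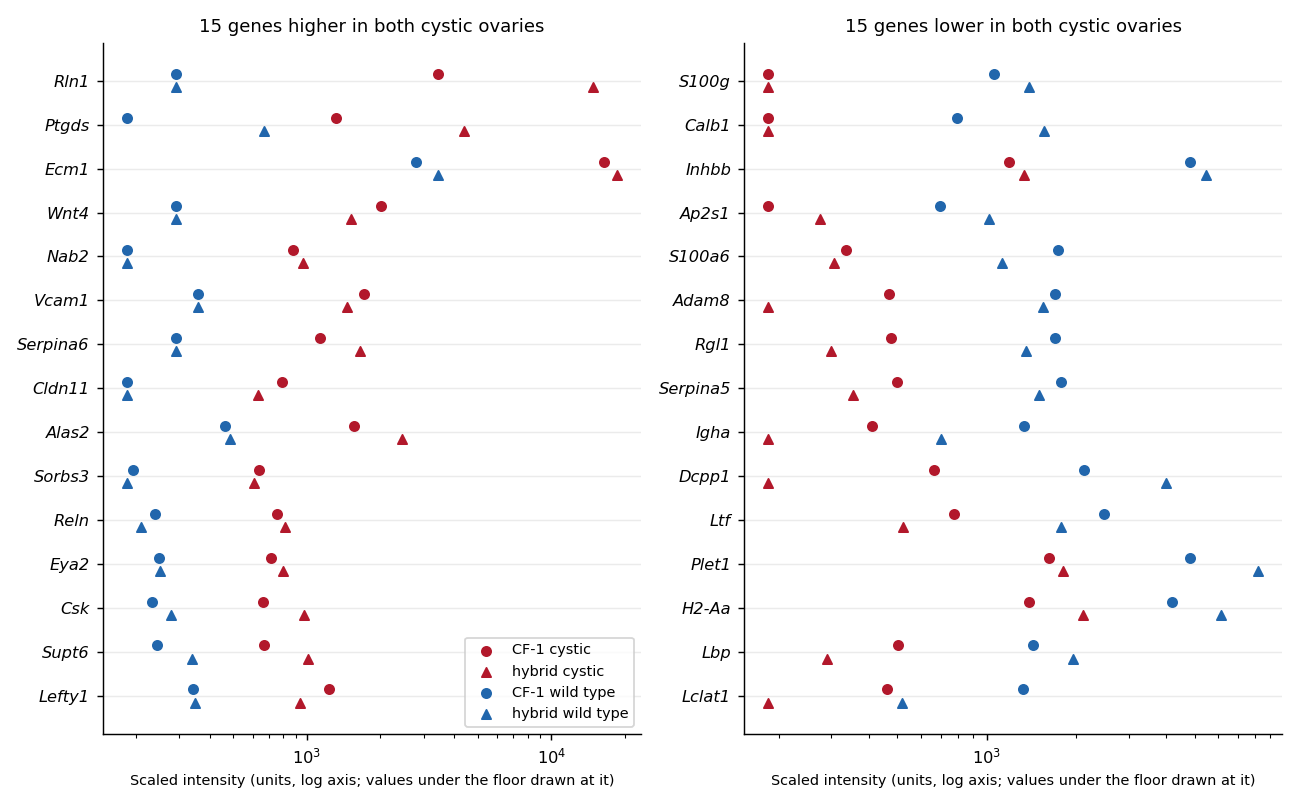
Scaled intensity on a log axis for the 15 named genes with the widest shared difference in each direction, left panel higher and right panel lower in both cystic ovaries. Red points are cystic and blue points wild-type ovaries, circles CF-1 and triangles hybrid, 1 array each, and values under the floor are drawn at it. In every row both red points lie on one side of the blue points of their strain, as the choice of genes requires.

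The 63 lower probe sets held 46 named genes. S100g, the calcium-binding protein calbindin-D9k, had -79.8 (CF-1) and 157 (hybrid) units in cystic ovaries, against 1053 and 1381 units in wild types, and both cystic values were under the floor, so that the CF-1 difference is at least 5.73-fold and the hybrid one at least 7.51-fold. Calb1, the related calbindin-D28k, had 132 (CF-1) and 149 (hybrid) units in cystic ovaries, against 791 and 1552.5 units in wild types, again with both cystic ovaries under the floor. At 5 months the CF-1 wild type read 344 units for S100g and 192 units for Calb1, both under the detection limit. The hybrid wild type of that age read 1147 and 608.5 units. Inhbb, the beta B subunit of activins and inhibins, had 1190.2 (CF-1) and 1331 (hybrid) units in cystic ovaries, against 4839.5 and 5454 units in wild types. It was lower by 4.07-fold and 4.1-fold, with a mean log2 difference of -2.03 (limma, SE 0.16, adjusted p = 0.105). These 3 genes, also chosen by a wide difference in both pairs, showed no overlap between the cystic and wild-type values of 2 months.

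S100a4 and S100a6, further small calcium-binding proteins, were lower as well. S100a4, picked out after its values were seen, had 3762 (CF-1) and 3767 (hybrid) units in cystic ovaries, against 15774 and 9170.4 units in wild types. For S100a6 the dimmer probe set had 337 (CF-1) and 306 (hybrid) units in cystic ovaries, against 1739 and 1128.5 units in wild types, while its brighter one, at 14589 (CF-1) and 18113 (hybrid) units in cystic ovaries, against 20773 and 21857 units in wild types, was lower by only 1.42-fold and 1.21-fold. Among the other leading lower genes were Ap2s1, a subunit of the clathrin adaptor, Adam8, a membrane metalloprotease, Rgl1, a Ral exchange factor, and Lclat1, a lipid acyltransferase. Igha, Dcpp1, Ltf, Plet1 and H2-Aa are described with their groups. Serpina5, the protein C inhibitor, had 499 (CF-1) and 354 (hybrid) units in cystic ovaries, against 1772 and 1499 units in wild types. Lbp, the lipopolysaccharide-binding protein, was lower by its 2 probe sets, the brighter of which read 1291.5 (CF-1) and 1170.4 (hybrid) units in cystic ovaries, against 2618 and 2963 units in wild types. Among the higher genes, 2 of 35, Wnt4 and Angpt2, were called by more than 1 probe set. In each of these the probe sets are named after the same source sequence and may not be independent. Of 5 further probe sets of the 35 genes 4 were higher in both pairs and 0 lower in both. Among the lower genes, 4 of 46, H2-Aa, Lbp, Krt8 and Slc39a4, were called by more than 1 probe set. Those of Slc39a4 are also named after the same source sequence. The 3 further probe sets were all lower in both, whatever the size, and the brighter one of S100a6 is among them.

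Gene lists were read by counts of genes higher in both cystic ovaries, lower in both, or mixed, with 1 probe set a gene. The lists were drawn up with earlier results of these data known. Shares set beside those of all genes are therefore descriptions and not tests of enrichment. Over all 3899 measured genes, 29.5% were higher and 28.5% lower in both, with a 2-fold difference or more in both for 0.872% higher and 1.15% lower genes. The median log2 difference was 0.02 in the CF-1 and -0.01 in the hybrid pair. A measured gene reached the limit on at least 1 of the 4 arrays.

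Granulosa and growing follicle genes held 2 members with matching differences of opposite direction and otherwise did not move together. Of 13 measured genes 3 were higher in both cystic ovaries, 5 lower in both and 5 mixed, and the median was -0.08 in each pair. Inhba, the activin beta A subunit, was lower like Inhbb, at 1895 (CF-1) and 1977 (hybrid) units in cystic ovaries, against 3479.5 and 3688.5 units in wild types, with nearly the same fold in both strains, 1.84 and 1.86. Inha, the inhibin alpha subunit, read 15427.5 (CF-1) and 25615.5 (hybrid) units in cystic ovaries, against 16336 and 13445 units in wild types, so that it was higher in the hybrid pair alone. Before scaling, Inha had 19352 units in the hybrid cystic and 15981 units in the hybrid wild-type ovary, a smaller difference. Amh, anti-Müllerian hormone of growing follicles, was at least 2-fold higher in both, at 2916 (CF-1) and 3913 (hybrid) units in cystic ovaries, against 1398 and 1444 units in wild types, with a mean log2 difference of 1.249 (limma, SE 0.19, adjusted p = 0.156). Hsd17b1, which makes oestradiol in granulosa cells, had 4500.3 (CF-1) and 4288 (hybrid) units in cystic ovaries, against 4744 and 4547 units in wild types. Gja1, the gap junction protein of granulosa cells, had 16331 (CF-1) and 16143 (hybrid) units in cystic ovaries, against 14772 and 13161 units in wild types. The lowest limma adjusted p in the list was 0.105, for Inhbb.

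Oocyte genes were lower in both cystic ovaries for 6 of 9 measured members, with medians of -0.20 in CF-1 and -0.30 in the hybrid, and 0 of 9 reached 2-fold in both. Zp3 had 1359.6 (CF-1) and 979 (hybrid) units in cystic ovaries, against 1706 and 1785.5 units in wild types, while Gdf9 differed by -0.07 and -0.08 on the log2 scale in the CF-1 and hybrid pairs. Proliferation genes were lower in both for 10 and higher in both for 6 of 25, with medians of 0.00 and -0.07. Mki67, a nuclear protein of cycling cells, had 1931 (CF-1) and 1799 (hybrid) units in cystic ovaries, against 2395 and 2038 units in wild types. Ccnd2, the D cyclin of granulosa cells, had 635 (CF-1) and 1446 (hybrid) units in cystic ovaries, against 376 and 1525 units in wild types.

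Genes of steroid synthesis were among the brightest on the arrays and showed no shared direction. Of 9 measured members 1 was higher in both cystic ovaries, 1 lower in both and 7 mixed, with medians of -0.05 in CF-1 and 0.15 in the hybrid. Cyp17a1, the androgen-making enzyme of theca cells, had 5915 (CF-1) and 6703 (hybrid) units in cystic ovaries, against 5773 and 6784 units in wild types, a difference of 0.04 in CF-1 and -0.02 in the hybrid. Star, which carries cholesterol into mitochondria, had 13159 (CF-1) and 17509 (hybrid) units in cystic ovaries, against 17465 and 15776 units in wild types. Cyp11a1, the enzyme that starts steroid synthesis, read 19877 (CF-1) and 29690.2 (hybrid) units in cystic ovaries, against 20595 and 17624 units in wild types. The lowest limma adjusted p in the list was 0.535.

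Scaling shifts the log2 difference of every probe set above the floor by the same amount, bright or not. The hybrid differences of these bright genes include that shift. On chip A, 30 probe sets stood at 20000 units or more before scaling in both hybrid arrays, and their median log2 difference was -0.06 before and 0.59 after scaling, where the scale factors of the arrays differed by 0.65. On chip B the corresponding values for 29 probe sets were 0.17 before and 0.80 after scaling, with a factor of 0.64. These medians hold the shift by construction. Since both arrays had to be this bright, the difference before scaling was limited by the choice of probe sets. The part of scaling in the hybrid differences was not tested. Before scaling, Cyp11a1 had 22430.3 units in the hybrid cystic and 20948 units in the hybrid wild-type ovary. In CF-1 the factors differed by only -0.05 on chip A and 0.11 on chip B. Hsd3b1, which makes progesterone, stood apart among the bright steroid genes, at 22428 (CF-1) and 3209 (hybrid) units in cystic ovaries, against 21960.2 and 16166.5 units in wild types. That is a 5.04-fold lower value in the hybrid cystic ovary beside nearly equal values in CF-1. At 5 months, however, the hybrid wild type read 3612 units, near the hybrid cystic value, and the CF-1 wild type 22977 units.

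Cholesterol synthesis genes, which feed steroid synthesis, were higher in both cystic ovaries for 7 of 8 measured members, with medians of 0.75 in CF-1 and 0.50 in the hybrid, against 0.02 and -0.01 over all genes. None of the 8 reached 2-fold in both pairs, and the lowest limma adjusted p was 0.297. Fdft1, squalene synthase, had 9808.5 (CF-1) and 8175 (hybrid) units in cystic ovaries, against 5782 and 5309 units in wild types, a mean log2 difference of 0.69 (limma, SE 0.19, adjusted p = 0.313). Idi1, an isomerase of the isoprenoid step, had 6449 (CF-1) and 5974 (hybrid) units in cystic ovaries, against 3361 and 4249.6 units in wild types. Sqle, which oxidizes squalene, and Lss, which closes the sterol ring system, had differences of 0.76 in CF-1 and 0.51 in the hybrid for Lss, and of 0.78 in CF-1 and 0.35 in the hybrid for Sqle. Mvd, an enzyme of the mevalonate pathway, and Dhcr7, which makes the last step to cholesterol, differed most in the hybrid, where Dhcr7 read 3031 units in the cystic and 512 units in the wild-type ovary, while in CF-1 it read 1973 units in the cystic and 1806 units in the wild-type ovary. Ebp, a sterol isomerase, was lower, by -0.15 in CF-1 and -1.26 in the hybrid on the log2 scale.

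Promoters of these genes were searched for the sterol regulatory element TCACNCCAC, the site of the factors that switch on cholesterol synthesis, on both strands of the 300 bases around each start in RefSeq (GRCm38.p6, 250 bases before to 50 after the start). Of the 6 cholesterol synthesis genes with a promoter in that table, Hmgcs1 alone held it, and over all promoters 408 of 32851 did (1.24%). Hmgcs1, which makes the precursor of mevalonate, had 14163.5 (CF-1) and 15481 (hybrid) units in cystic ovaries, against 13395 and 11143.5 units in wild types. Its promoter, at chr13:119690101-119690400 on the + strand, is printed because it was the single match in the list, with the element in capitals.
Hmgcs1: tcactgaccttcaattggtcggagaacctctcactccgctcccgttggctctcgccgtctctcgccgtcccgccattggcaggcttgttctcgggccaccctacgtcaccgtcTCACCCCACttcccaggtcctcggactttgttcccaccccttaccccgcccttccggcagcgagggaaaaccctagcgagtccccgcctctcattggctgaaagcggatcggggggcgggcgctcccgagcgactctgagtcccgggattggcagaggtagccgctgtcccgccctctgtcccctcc
The match starts at base 114 of the window, 137 bases before the annotated start, and is a match of letters only. Among genes of cholesterol uptake and handling, 0 of 5 with a promoter held the element. That list was higher in both for 2, lower in both for 1 and mixed for 4 of 7, and Scarb1, the receptor for high-density lipoprotein, had 18022.5 (CF-1) and 26047 (hybrid) units in cystic ovaries, against 15378.5 and 12599.6 units in wild types. Before scaling, Scarb1 read 19678 units in the hybrid cystic and 14976 units in the hybrid wild-type ovary, a smaller difference. The site CAAGGTCA of the steroidogenic factor NR5A1 was found in 0 of 4 steroidogenesis genes with a promoter, against 1.56% of all promoters.

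Luteal genes moved unevenly, and Rln1 was the one at least 2-fold higher in both of 9 measured. Of these 9, 5 were higher in both cystic ovaries and 3 lower in both. Timp1, an inhibitor of metalloproteases, had 18704 (CF-1) and 17764 (hybrid) units in cystic ovaries, against 11599 and 7461 units in wild types. Socs3, a feedback inhibitor of cytokine signalling, had 568 (CF-1) and 433 (hybrid) units in cystic ovaries, against 195 and 257 units in wild types. Ptgfr, the luteal receptor for prostaglandin F2 alpha, was lower at 12511 (CF-1) and 7675 (hybrid) units in cystic ovaries, against 15874 and 10414 units in wild types. Bhmt, a methyltransferase of methionine synthesis, was at least 2-fold lower in both, at 512 (CF-1) and 431 (hybrid) units in cystic ovaries, against 1043 and 4043 units in wild types. In the Wnt and hedgehog pathway 6 of 10 members were higher in both and 0 lower in both, with Wnt4 the widest. The ligand Dhh and the Wnt inhibitor Frzb differed by 0.52 in CF-1 and 0.91 in the hybrid for Dhh and by 1.23 in CF-1 and 0.50 in the hybrid for Frzb, both at low levels, and Ctnnb1, the Wnt effector beta-catenin, had 3400.1 (CF-1) and 2305 (hybrid) units in cystic ovaries, against 3292 and 2906 units in wild types.

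**Figure D3:**
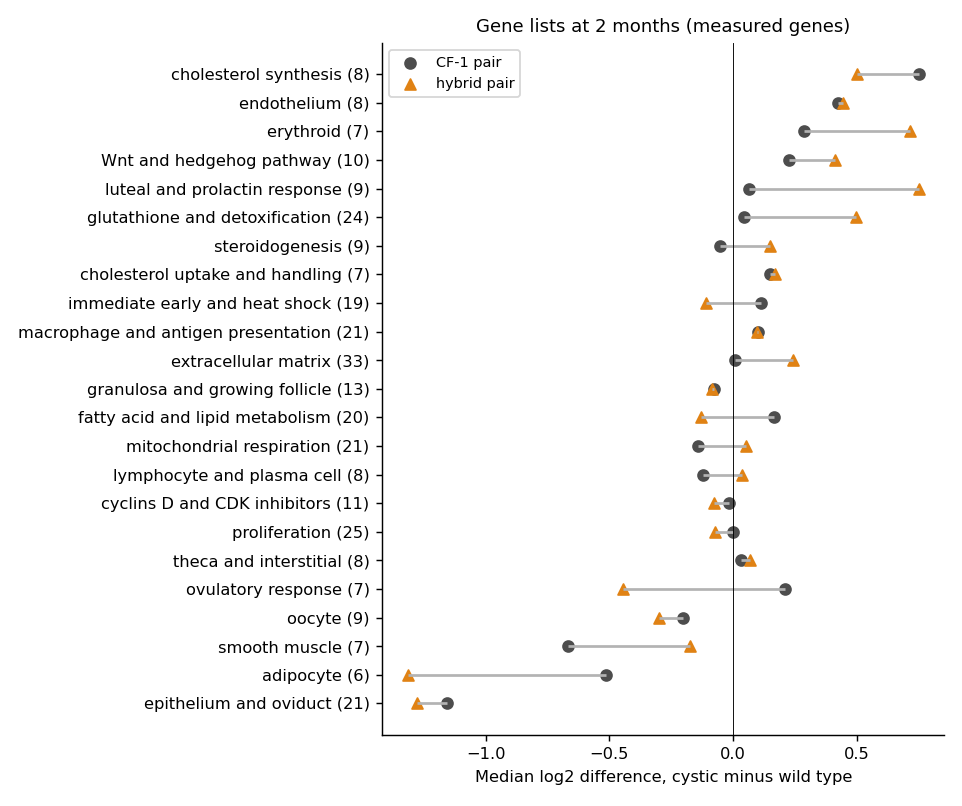
Median log2 difference, cystic minus wild type, of each gene list in the CF-1 pair (circles) and the hybrid pair (triangles), with the number of measured genes in parentheses and lists in order of the median of the pair means. Epithelium and oviduct stands lowest at -1.16 and -1.28, and cholesterol synthesis highest at 0.75 and 0.50.

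Genes of epithelium and oviduct were lower in both cystic ovaries for 13 of 21 measured members, and 11 of 21 were at least 2-fold lower in both (52.4%, against 1.15% of all genes). Because the list was chosen with earlier results of these data known, this share is not an independent test. The medians were -1.16 in CF-1 and -1.28 in the hybrid, and the lowest limma adjusted p was 0.101. Krt8, a keratin of simple epithelia, had 1174 (CF-1) and 1141 (hybrid) units in cystic ovaries, against 2684.5 and 2771 units in wild types, and its other probe set was lower too. Cdh1, E-cadherin of epithelial junctions, had 663 (CF-1) and 733 (hybrid) units in cystic ovaries, against 1571.5 and 1827 units in wild types. Plet1, an epithelial surface protein, had 1613 (CF-1) and 1801 (hybrid) units in cystic ovaries, against 4811 and 8171 units in wild types. In each of these 3 genes, taken from the 11 at least 2-fold lower in both, both cystic ovaries lay below both wild types.

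The same list held secreted proteins of the reproductive tract. Ltf, lactoferrin, had 775 (CF-1) and 524 (hybrid) units in cystic ovaries, against 2472 and 1777 units in wild types. Dcpp1, a secreted protein, had 663 (CF-1) and 175 (hybrid) units in cystic ovaries, against 2129.6 and 4005.5 units in wild types, with the hybrid cystic value under the floor. Pax8, a transcription factor of Müllerian epithelium, had 237 (CF-1) and 231 (hybrid) units in cystic ovaries, against 677 and 733 units in wild types. Cldn3, Spint1, Epcam and Krt19 were also at least 2-fold lower in both, with log2 differences between -1.51 and -1.09. Among the members that were not lower in both, the oviduct glycoprotein Ovgp1 had 10829 (CF-1) and 9714 (hybrid) units in cystic ovaries, against 19169 and 9338 units in wild types. Foxj1, a factor of ciliated cells, had 800.2 (CF-1) and 529.5 (hybrid) units in cystic ovaries, against 655 and 513 units in wild types. Upk3b, a mesothelial gene, had 1377 (CF-1) and 1894 (hybrid) units in cystic ovaries, against 1188.5 and 1578 units in wild types. Ovgp1 was thus lower in CF-1 and nearly equal in the hybrid, and Foxj1 and Upk3b were slightly higher in both cystic ovaries. The summed level of the 16 members on chip A was 36626.5 and 44175 units in the CF-1 and hybrid cystic ovaries, against 57782 and 54905 units in their wild types. How much oviduct or surface epithelium each sample held was not tested.

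**Figure D4:**
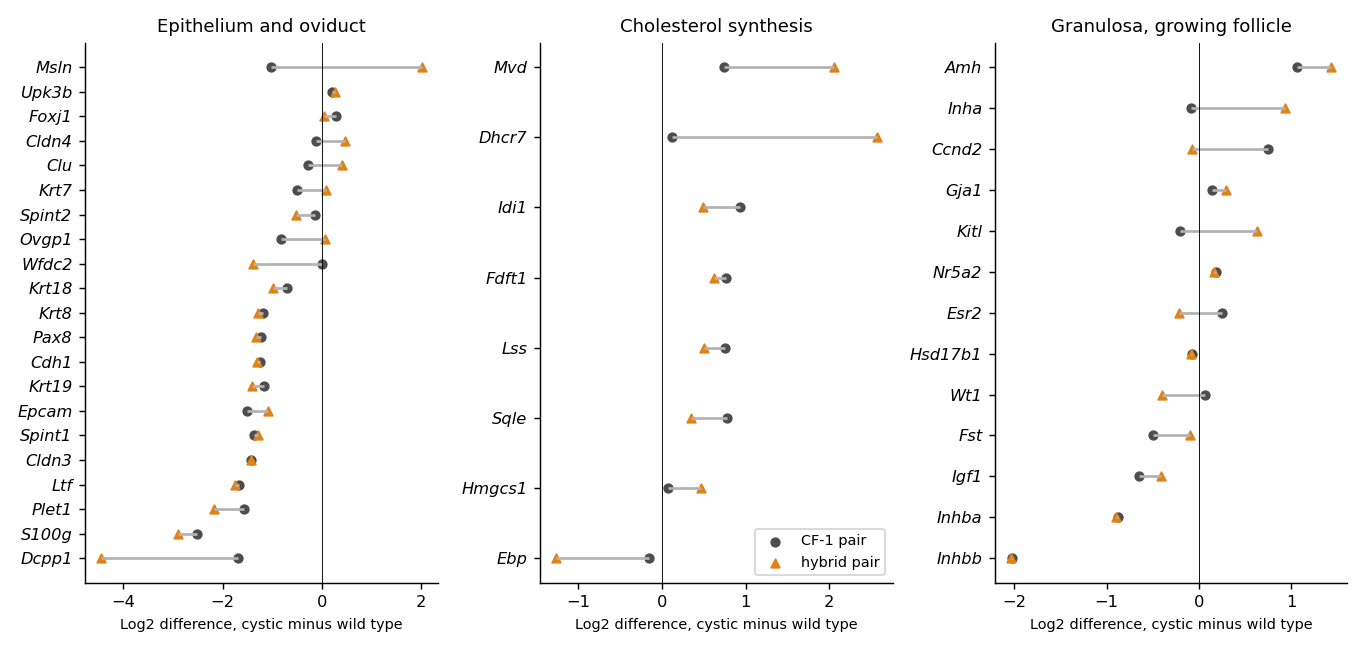
Log2 difference, cystic minus wild type, of every measured gene of 3 lists in the CF-1 pair (circles) and the hybrid pair (triangles), with the genes in order of their mean. In the epithelium and oviduct panel 11 of 21 genes lie at -1 or lower in both pairs, 7 of 8 cholesterol synthesis genes lie above 0, and in the granulosa panel Inhbb and Inhba lie low and Amh high in both pairs.

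Genes of fat and smooth muscle, tissues that can adjoin the ovary, were lower in both cystic ovaries in more members than higher. Adipocyte genes were lower in both for 3 of 6 members and higher in both for 0, and 2 of 6 were at least 2-fold lower in both (33.3%, against 1.15% of all genes), with medians of -0.52 in CF-1 and -1.32 in the hybrid. Adipoq, the fat-cell hormone adiponectin, had 317 (CF-1) and 329 (hybrid) units in cystic ovaries, against 613 and 1656 units in wild types. Fabp4, a fatty acid carrier of fat cells, had 176 (CF-1) and 524 (hybrid) units in cystic ovaries, against 418 and 1315 units in wild types. The other 3 of the 6 were mixed, and 2 members were higher in the CF-1 and 1 in the hybrid cystic ovary. The summed level of the 6 was nearly equal in CF-1, at 5430 units in the cystic and 5737 units in the wild-type ovary. In the hybrid it was 5424 units in the cystic and 10006 units in the wild-type ovary. Smooth muscle genes were lower in both for 6 of 7 members, with medians of -0.67 and -0.17 and 0 members at least 2-fold in both. Cnn1, the contractile protein calponin, had 861 (CF-1) and 804 (hybrid) units in cystic ovaries, against 2132 and 1585 units in wild types. Acta2, smooth muscle actin, had 15509 (CF-1) and 19981.5 (hybrid) units in cystic ovaries, against 22704 and 20303 units in wild types, which was lower in CF-1 and nearly equal in the hybrid. The part of adjoining fat and muscle in these values was not tested.

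Immune genes showed no shared direction over the list. Of 21 macrophage and antigen presentation genes 8 were higher in both cystic ovaries and 5 lower in both, with a median of 0.10 in each pair. The class II genes Cd74, H2-Aa, H2-Ab1 and H2-Eb1 and the gene Lgals3 were the 5 lower members. Cd74, the invariant chain, had 2471 (CF-1) and 2743 (hybrid) units in cystic ovaries, against 7022 and 6693 units in wild types. H2-Aa, a class II alpha chain, had 1386 (CF-1) and 2114 (hybrid) units in cystic ovaries, against 4214 and 6136 units in wild types. It was lower in both pairs by all 5 of its probe sets, which may also bind transcripts of related class II genes. H2-Ab1 had 135 (CF-1) and 563 (hybrid) units in cystic ovaries, against 1076 and 936 units in wild types. Lyz2, macrophage lysozyme, was one of the 8 higher members and had 16070.5 (CF-1) and 15223 (hybrid) units in cystic ovaries, against 8991 and 11597 units in wild types. C1qb, a complement subunit, was another and had 2616 (CF-1) and 2961 (hybrid) units in cystic ovaries, against 2034.5 and 2481.5 units in wild types. Lgals3, galectin-3, was lower at 2512 (CF-1) and 2376 (hybrid) units in cystic ovaries, against 7471 and 3940.0 units in wild types. Igha, the immunoglobulin A heavy chain, was the 1 of 8 lymphocyte and plasma cell genes at least 2-fold lower in both, at 410.2 (CF-1) and 129.7 (hybrid) units in cystic ovaries, against 1334 and 699 units in wild types.

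Erythroid and vascular genes were higher in more members than lower. Of 7 erythroid genes 4 were higher in both cystic ovaries, 1 was lower in both and 2 were mixed, with medians of 0.29 in CF-1 and 0.71 in the hybrid. The 3 members on chip A summed to 2611.5 (CF-1) and 2145 (hybrid) units in cystic ovaries, against 2659.6 and 2591.9 units in wild types. The 4 on chip B summed to 44359 (CF-1) and 80931 (hybrid) units in cystic ovaries, against 26377 and 26227 units in wild types. Alas2 had 1560.5 (CF-1) and 2443 (hybrid) units in cystic ovaries, against 461 and 485 units in wild types. Hbb-b2, a beta globin, had 18318 (CF-1) and 30496 (hybrid) units in cystic ovaries, against 7780.0 and 8538 units in wild types. In the hybrid it read 22806 units in the cystic and 9926 units in the wild-type ovary before scaling. Globin genes are close copies whose probe sets may share targets, and Hba-a1 in the hybrid stood at 35534 units in the cystic and 19760 units in the wild-type ovary before scaling, near the top of the arrays. Endothelial genes were higher in both for 6 of 8 and lower in both for 0, with medians of 0.42 and 0.44. Eng, a co-receptor of endothelial cells, had 8793 (CF-1) and 8168 (hybrid) units in cystic ovaries, against 6361 and 4726 units in wild types. Cdh5, endothelial cadherin, had 1375 (CF-1) and 1202 (hybrid) units in cystic ovaries, against 975 and 893 units in wild types. Kdr, a receptor of vascular endothelial growth factor, had 1466 (CF-1) and 1606 (hybrid) units in cystic ovaries, against 1069.6 and 1168 units in wild types. None of the 8 reached 2-fold in both, and the lowest limma adjusted p was 0.339.

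Matrix genes were higher in both cystic ovaries for 14 of 33 and lower in both for 7, with medians of 0.01 and 0.24. Col5a1, a fibrillar collagen, was the 1 member at least 2-fold higher in both, at 2069.7 (CF-1) and 1509 (hybrid) units in cystic ovaries, against 1014.5 and 625 units in wild types. Col1a1, the main fibrillar collagen, had 5191 (CF-1) and 4564 (hybrid) units in cystic ovaries, against 3531 and 3519.8 units in wild types. Hspg2, the basement membrane proteoglycan perlecan, had 2594 (CF-1) and 2997 (hybrid) units in cystic ovaries, against 1716 and 1279.5 units in wild types. Tnc, tenascin C, was lower at 2476 (CF-1) and 1075 (hybrid) units in cystic ovaries, against 4031 and 2299 units in wild types. Among 24 glutathione and detoxification genes 13 were higher in both and 2 lower in both, with medians of 0.05 and 0.50. Several of them are bright, and the hybrid scaling shifts them as it does all probe sets above the floor. Gsta3, a glutathione transferase, had 1377 (CF-1) and 2200.4 (hybrid) units in cystic ovaries, against 616 and 760.3 units in wild types. At 5 months the CF-1 wild type read 2052 units, above the CF-1 cystic value, and the hybrid wild type 823 units. Cyp1b1, an oxidase of oestrogens, had 10384 (CF-1) and 6815 (hybrid) units in cystic ovaries, against 4000.4 and 3842 units in wild types. Gsta4, another transferase, was lower at 2483 (CF-1) and 2168 (hybrid) units in cystic ovaries, against 4395 and 4597 units in wild types.

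Of the remaining lists, immediate early and heat shock genes were higher in both for 9 and lower in both for 6 of 19. Egr1, an early LH-responsive transcription factor, had 4008 (CF-1) and 3525 (hybrid) units in cystic ovaries, against 1588 and 1922 units in wild types. Jun, a subunit of the AP-1 factor, had 498.5 (CF-1) and 611 (hybrid) units in cystic ovaries, against 1465 and 1014 units in wild types. Fatty acid and lipid genes were higher in both for 7 and lower in both for 6 of 20, and Fabp3, a fatty acid carrier, had 650.3 (CF-1) and 2081 (hybrid) units in cystic ovaries, against 2337 and 3473.5 units in wild types. Mitochondrial respiration genes were all 21 lower in the CF-1 cystic ovary, by a median of -0.14, and 11 of 21 were higher in the hybrid cystic ovary, with a median of 0.05. Over all genes 1848 of 3899 were lower in CF-1 and 1901 of 3899 higher in the hybrid. Cyclins D and their inhibitors were lower in both for 6 and higher in both for 2 of 11, and theca and interstitial genes were higher in both for 3 and lower in both for 2 of 8. The 7 measured ovulatory genes were higher in both for 2 and lower in both for 0.

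Some genes stood apart in 1 strain. At least 3-fold higher in CF-1 and nearly equal in the hybrid were 12 probe sets (in all 48 of 5960 probe sets were at least 3-fold higher, 0.805%). Nos2, the inducible nitric oxide synthase, had 847.5 (CF-1) and 456 (hybrid) units in cystic ovaries, against 195 and 541 units in wild types. Cd83, an activation marker of dendritic and B cells, had 1685.5 (CF-1) and 443 (hybrid) units in cystic ovaries, against 449 and 458 units in wild types. Serpind1, Vps45 and Miga2 completed the 5 widest. In the other direction 5 probe sets were at least 3-fold lower in CF-1 alone (35 probe sets in all, 0.587%). Myh11, smooth muscle myosin, had 249 (CF-1) and 323 (hybrid) units in cystic ovaries, against 1028 and 348 units in wild types. The other one with a gene name was Prap1, whose wild-type value of 1916 units in CF-1 stood against values below 0 on the other 3 arrays.

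In the hybrid alone, 25 probe sets were higher and 22 lower by 3-fold or more in the cystic ovary (in each direction 76 of 5986 probe sets were so, 1.27%). Slpi, a secreted protease inhibitor, had 99.7 (CF-1) and 1347 (hybrid) units in cystic ovaries, against 74.8 and -82.7 units in wild types. Apoe, a lipid carrier, had 8964 (CF-1) and 12866 (hybrid) units in cystic ovaries, against 10327 and 2657 units in wild types, but its other probe set, at 11809.7 (CF-1) and 11365 (hybrid) units in cystic ovaries, against 13112 and 9832 units in wild types, did not show it. Dhcr7, Lpar1 and Ppa2 were the other widest higher genes. Ereg, an ovulatory growth factor, had 171 (CF-1) and 279 (hybrid) units in cystic ovaries, against -27.1 and 1511 units in wild types. Tnfaip6, a matrix protein of the ovulating cumulus, had 181 (CF-1) and 307 (hybrid) units in cystic ovaries, against 119.7 and 1545 units in wild types. Of the 4 ovaries of 2 months, the hybrid wild type alone reached the detection limit for these ovulatory genes. Gpd1 and Hps4 completed the widest lower genes with Hsd3b1, and no test of the difference between strains was possible with 1 sample each.

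The 2-month differences were followed in the ovaries of 5 months, which share no array with them. Of the 52 higher probe sets 40 were higher in the luteoma than in the hybrid wild type of its age and 11 lower, where 43.7% of the 5619 probe sets were higher, and 27 were at least 2-fold higher (5.32% of all). In the CF-1 tumour 24 were higher and 25 lower (51.7% of all were higher), and 12 were at least 2-fold higher against 4.56% of all. Of the 63 lower probe sets 50 were lower in the luteoma (56% of all were lower), 28 at least 2-fold (7.67% of all). In the tumour 50 of the 63 were lower (47% of all), 32 at least 2-fold (6.78% of all). In the hCG-treated CF-1 ovary 30 of the 52 were higher (50.3% of all), 11 at least 2-fold (6.32% of all). There 36 of the 63 were lower (49.4% of all), 12 at least 2-fold (5.59% of all), against the same CF-1 wild type as the tumour.

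Single genes differed between the pathologies. The tumour array of chip B, which carries Rln1, Inhbb, Amh, Cd74 and Krt8, is given as 5 months in its title and as 2 months in its description, and the title was followed. Rln1 had 16825 units in the luteoma and 21.8 in the tumour, against 82.8 units in the hybrid and 473 units in the CF-1 wild type of 5 months. Ecm1 had 21173 units in the luteoma and 1917 in the tumour, against 2683 and 5204 units in those wild types. In the hCG-treated CF-1 ovary, also called a luteoma in the labels, Rln1 had 358.6 and Ecm1 had 7922 units, against the same CF-1 wild type, so that of the ovaries of 5 months the hybrid luteoma alone stood above its wild type for Rln1. Inhbb had 711 units in the luteoma and 10279 in the tumour, against 5987 and 4135 units, so that the tumour stood above its wild type where the 2-month cystic ovaries stood below theirs. Amh, higher at 2 months, had 837 and 415 units, against 1704 and 1157 units in the hybrid and CF-1 wild types, lower in both. Angpt2 was highest in the tumour, with 7366 units, while the CF-1 wild type of 5 months had 1162 units. Cd74 had 859.7 units in the tumour, while its wild type had 12507 units. Krt8 had 607.5 in the tumour and 919.5 units in the luteoma, against 1809.6 and 3180.1 units in the CF-1 and hybrid wild types.

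**Figure D5:**
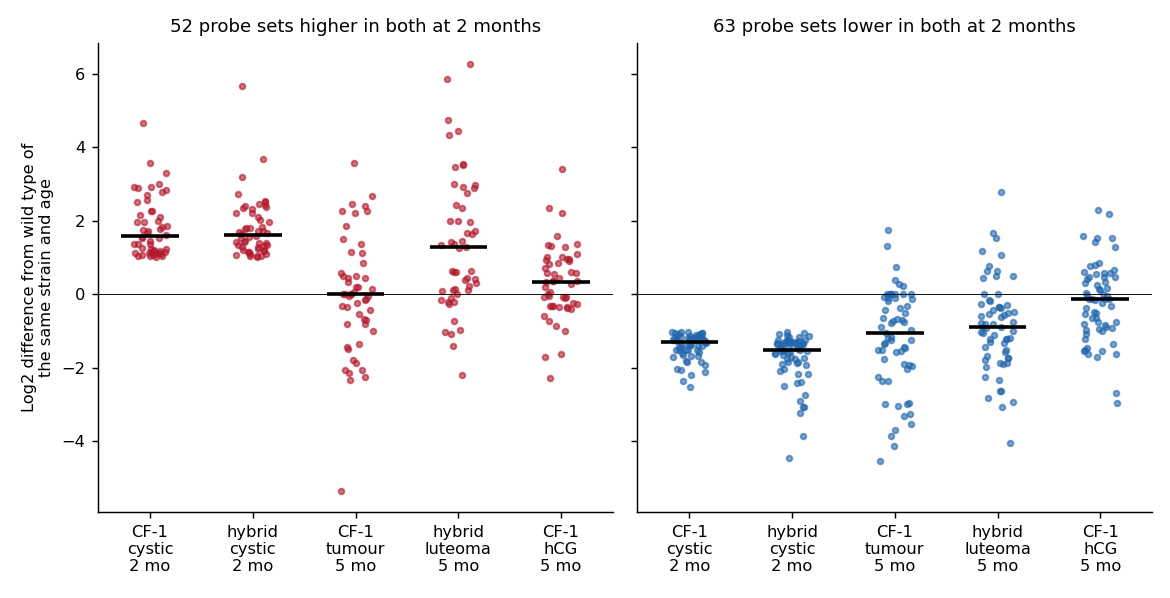
Log2 difference from the wild type of the same strain and age for the 52 probe sets higher (left) and the 63 lower (right) in both cystic ovaries at 2 months, with the 2-month pairs that chose them first and the 5-month pairs after them. Points are probe sets and bars medians, and the luteoma median is 1.27 for the higher and -0.89 for the lower probe sets, while the tumour medians are 0 and -1.06.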

How the data were processed

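Ovarian RNA was measured on 2 chip types with 1 array per condition, and groups came from the titles. The authors deposited 1 intensity per probe set and array, on a linear scale with 14.0% to 30.1% of values below 0 on the 2-month arrays. The software behind them is not named in the sources used here. On each chip 76 probe sets were left out, 55 of them controls. Genes were named from the platform annotation, which gave 1 gene for 7561 entries, of which 7544 were updated by Entrez number through GRCm38.p6.

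The 9 arrays of a chip type were scaled to a common mean, trimmed below the 2nd and above the 98th percentile. For each array the 25th percentile or, if larger, the size of the 5th was noted, and the median of these over the arrays served as the floor. Lower values were set to it before log2. A fold with an array under the floor is a lower bound. Genotype was fitted with strain as an additive term, which pairs the samples within strain as labelled, on 4 arrays per chip with limma 3.58.1 in R 4.3.3 for probe sets at the limit on at least 2 arrays, and p-values were adjusted over both chips by the Benjamini-Hochberg method. A fold call needed 2-fold with the brighter array at the limit. The fit was also run on simulated data, drawn with the same spread for every probe set of a chip. That run cannot show how the fit behaves where the spread differs between probe sets. Tables were made with Python 3.11.15, pandas 2.3.3 and numpy 2.4.6.

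Named were members of 23 gene lists, the 15 higher and 15 lower genes with the largest smaller log2 difference of the 2 pairs, genes past the limma threshold of 0.05, 5 of each kind in opposite directions by the same measure, and the 5 widest of each kind at least 3-fold in 1 pair and nearly equal in the other. Of several probe sets of a gene, lists used the one with the highest mean. The comparison, its lists and rules were chosen with earlier results of these data known. Alternatives were quantile normalization, scaling to the median of detected probe sets, a doubled floor, a floor of 20 units, other fold rules, the mean of a gene's probe sets, and other limma designs. Precision is limited by the number of arrays.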

Additional observations from a re-analysis of the deposited data

Results flagged for a closer look

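Genes at least 2-fold in opposite directions in the 2 strains are given as values, and the difference between strains was not tested, since each pair is 1 sample against 1. The values are log2 differences of the CF-1 pair minus those of the hybrid pair, for the 5 named genes of each kind whose smaller log2 difference of the 2 pairs was largest, among 14 probe sets higher in CF-1 and lower in the hybrid cystic ovary (0.249% of 5619) and 9 the other way (0.16%).

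Of the first kind, Slc5a11, an inositol transporter, differed by 3.97, with 498 (CF-1) and -4.2 (hybrid) units in cystic ovaries, against -28.1 and 1066 units in wild types. Serpina1e, a plasma protease inhibitor, differed by 3.04, with 689 (CF-1) and 604 (hybrid) units in cystic ovaries, against 249.9 and 1806 units in wild types. Oprd1, the delta opioid receptor, differed by 3.02, Lsg1, a ribosome assembly factor, by 2.68, and Mc1r, the melanocortin 1 receptor, by 2.54, and none of these 3 exceeded 1000 units on any of the 4 arrays.

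Of the second kind, Samd10 had the widest difference, -6.33, with -176 (CF-1) and 2654 (hybrid) units in cystic ovaries, against 1024 and -42.8 units in wild types, so that 2 arrays lay below 0. Lama4, a laminin chain of blood vessels, differed by -2.65, Terf2ip, a telomere protein, by -2.62, Wfdc21 by -2.43 and Apoa4, an apolipoprotein, by -2.43, the last with 385 (CF-1) and 1502 (hybrid) units in cystic ovaries, against 867 and 628 units in wild types.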

How the results depend on the processing

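All 30 named genes of the 2 leading sets kept their call under quantile normalization and under scaling to the median of detected probe sets. They also kept it with a floor of 20 units, but a lower floor can only widen a difference, so this could not fail. With the floor doubled, which also doubles the detection limit, 20 kept the call and 10 lost it. A doubled floor can drop a call but cannot reverse it. With the floor doubled 31 probe sets were higher and 30 lower in both, necessarily among those reported, and 4 opposite. In the CF-1 pair 93 were then higher and 88 lower, and in the hybrid pair 167 and 119. A floor of 20 units, well inside the noise of dim probe sets, gave 259, 370 and 344 for both higher, both lower and opposite, 999 and 1066 in CF-1 and 1222 and 1443 in the hybrid, and 48.6% of the shared higher set then had the same sign in the luteoma, against 76.9% as reported. A 1.5-fold rule gave 173, 160 and 87, with 568 and 477 in CF-1 and 832 and 659 in the hybrid. A 3-fold rule gave 19, 13 and 2, with 48 and 35 in CF-1 and 76 and 76 in the hybrid, and 26.3% of the shared higher set then had the same sign in the tumour, against 46.2%. With 1 pair left out, the shared counts become those of the other pair, 208 to 323 higher and 188 to 302 lower.

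Limma called 11 probe sets (6 higher, 5 lower) with the floor doubled and 84 (46 higher, 38 lower) with trend and robust variances, and 0 under quantile normalization, median scaling, a floor of 20 units, no filter, and the fits with 6 or 8 arrays. Without the strain pairing as a block it called 0, with a lowest adjusted p of 0.0575. With 1 pair left out no residual degrees of freedom remain, so no test was made.

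For lists with a median near 0 (steroidogenesis, theca, granulosa, ovulatory, immediate early, mitochondrial, fatty acid and lymphocyte genes), its sign turned under at least 1 alternative. In the main lists, medians of the pair means that moved by more than 1 SD of the single-pair medians were epithelium and oviduct (-1.24, with the floor doubled -0.77), endothelium (0.46, under quantile normalization 0.43, with either other floor 0.55, single pairs 0.42 to 0.44), erythroid (0.35, with the floor doubled 0.66, single pairs 0.29 to 0.71), granulosa (0.02, with either other floor 0.10, by the mean of probe sets 0.034, single pairs -0.085 to -0.076), steroidogenesis (0.12, single pairs -0.051 to 0.15) and extracellular matrix (0.02, single pairs 0.01 to 0.24). That SD is not the spread over genes and is wide where the pairs differ, so some large shifts stayed within it. Such were adipocyte (-0.84, with a floor of 20 units -1.29, single pairs -1.32 to -0.52) and smooth muscle (-0.47, single pairs -0.67 to -0.17). The cause of these shifts was not tested.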
